A study of Rattus norvegicus with 48 samples.

Results

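Expression of 5 genes of thyroid hormone transport, activation and reception was described across 4 brain areas of adult male rats. The genes were Ttr, Slco1c1, Dio2, Thra and Thrb. They were chosen by symbol from the 14324 symbols that the array's probe sets carry singly, and each of the 5 had 1 probe set. The samples were 48 Affymetrix whole-transcript arrays, each of RNA pooled from 4 outbred Sprague-Dawley males of the F3 generation, taken at 120 days of age as 2 mm punches. In each area 3 pools were stated for each of 4 groups. St-Vin and NSt-Vin animals descended from gestating females injected intraperitoneally with vinclozolin, an antiandrogenic fungicide, at 100 mg/kg/day from embryonic day 8 to 14. St-Con and NSt-Con animals descended from females given DMSO, the vehicle, on the same days. St animals were restrained 6 hours a day for 21 days, from postnatal day 23 to 43, and NSt animals were not. The F2 parents were untreated in every group. A Vin and a Con animal were housed together as a dyad, and each pool held the Vin or the Con animals of 1 dyad group. Dyad groups 1 to 3 were NSt and 4 to 6 were St. The areas were the basolateral amygdala (BLA), the primary and secondary motor cortex (CRTX), and CA1 and CA3 of the hippocampus.

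Thyroxine reaches the brain across the capillary wall and through the choroid plexus, the epithelium that secretes cerebrospinal fluid. Transthyretin, the product of Ttr, binds thyroxine and is among the most abundant messages of choroid plexus epithelium, while brain tissue proper makes little of it. Slco1c1 encodes a transporter of thyroxine that in rodents sits in brain capillaries, choroid plexus and astrocytes. Dio2 encodes the deiodinase with which astrocytes turn thyroxine into the active hormone triiodothyronine, and Thra and Thrb encode the nuclear receptors that bind it. In the hippocampus and cortex thyroid hormone is known for its part in neuronal maturation and synaptic function.

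Of the 48 arrays, 46 were used. The arrays CRTX NSt-Vin 2 and CA1 St-Con 3 equalled the mean of the other arrays of their group at every one of 27342 probe sets, within 0.0051, so they hold no measurement of their own and those groups had 2 arrays. Array medians were 7.08 to 7.13 in BLA, 6.76 to 6.81 in CRTX, 7.11 to 7.17 in CA1 and 7.34 to 7.39 in CA3, on a log2 scale. Areas were therefore set side by side after subtraction of each array's median, or on another scale where stated, and without a test. The amygdala label rested on 2 of 4 marker genes. Above the array median, Lypd1 averaged 2.71 in BLA, against 0.67 to 1.15 in the other areas, and Cyp26b1 averaged -0.30, against -1.76 to -1.24. Rspo2 was lowest in BLA, at 1.49 against 1.79 to 2.31, and Etv1 was 2.91 against 2.82 to 3.27. The BLA arrays also varied in striatal genes, whose list mean ran from 0.23 to 2.69 above the array median. The median of these list means was 1.60 in BLA, against 0.04 in CRTX, -0.10 in CA1 and -0.01 in CA3. The highest CA3 value was 1.31. The part of striatal tissue in the differences between areas was not tested. The label of the hippocampal areas was not borne out by markers: the list of 4 CA1 pyramidal cell genes lay 1.45 above the array median in the arrays labelled CA1 (median of list means) and 1.77 above it in those labelled CA3, and the list of 5 CA3 pyramidal cell genes lay 1.97 and 1.99 above it. Of the 6 cortical layer genes looked for, 2 were found, Fezf2 and Rspo1, and both ranked highest in CRTX. As a median percentile of all probe sets of an array, Fezf2 was at 81.6 in CRTX, against 64.3 to 73.0 in the other areas. Rspo1 was at 56.9, against 45.2 to 53.5.

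Ttr was the most variable of the 5 genes, and its level followed choroid plexus genes from punch to punch. As log2 values, the lowest and highest arrays were at 6.70 and 12.46 in BLA, at 4.22 and 15.02 in CRTX, at 7.38 and 15.59 in CA1, and at 5.69 and 14.49 in CA3. The gene lies at chr18:12216684-12225972 in the rat assembly GRCr8. An array was called choroid-rich when the mean of 15 choroid plexus genes, Ttr not among them, lay more than 0.6 above the mean of its area. This marked 3 arrays, CRTX NSt-Con 1, CA1 NSt-Con 3 and CA3 NSt-Con 3, and in each of them 15 of the 15 genes were higher than in any other array of the area. All 3 belong to the NSt-Con group, so a stress or lineage difference against that group includes them.

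In the choroid-rich CRTX array Ttr was 15.02, against 4.22 to 11.12 in the other 10 CRTX arrays. In the choroid-rich CA1 array it was 15.59, against 7.38 to 15.04 in the others. In the choroid-rich CA3 array it was 14.49, against 5.69 to 13.43. Each was the highest Ttr value of its area. BLA had no such array, but its highest Ttr, 12.46 in BLA St-Vin 3, also fell in the array with the highest choroid list mean, 6.63 against 6.08 to 6.28 in the others, where 9 of the 15 genes were at their highest. CA1 NSt-Con 2 had a Ttr value of 15.04 with a choroid list mean of 7.31, which ranked 2 of 11 in CA1. That mean lay 0.44 above the area mean, below the bound of 0.6, and 0.63 above the area median. The area mean includes the 8.83 of CA1 NSt-Con 3. Fewer choroid cells and less Ttr RNA per cell cannot be told apart in such punches.

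**Figure D1:**
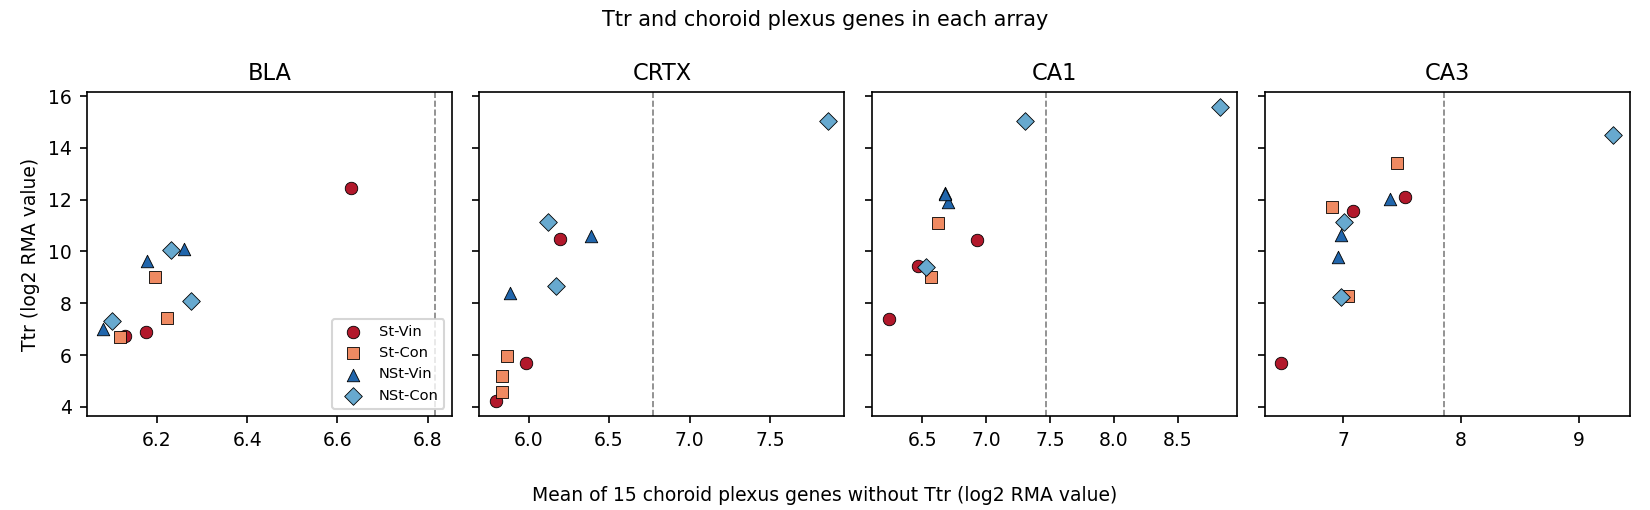
Ttr (vertical axis, log2 RMA value) against the mean of 15 choroid plexus genes without Ttr (horizontal axis, log2 RMA value) in each of the 46 arrays used, by area and group. The dashed line marks 0.6 above the area mean. The 3 arrays to its right have the highest Ttr of their areas, and Ttr spreads over several log2 units to its left as well.

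The same arrays were looked at for the other members. Slco1c1 was the highest of its area in the choroid-highest array of all 4 areas: 9.31 in BLA St-Vin 3 against 9.01 to 9.17 in the other BLA arrays, 8.94 in CRTX NSt-Con 1 against 8.53 to 8.88, 9.93 in CA1 NSt-Con 3 against 8.87 to 9.32, and 10.00 in CA3 NSt-Con 3 against 9.17 to 9.73. The capillary endothelium list, another place of Slco1c1, was also the highest of its area in 3 of them, by a smaller margin: 7.20 in BLA St-Vin 3 against at most 7.19, 7.38 in CA1 NSt-Con 3 against at most 7.28, and 7.62 in CA3 NSt-Con 3 against at most 7.61. It was 6.90 in CRTX NSt-Con 1, within the range of the other CRTX arrays. The list of astrocytes, also a place of Slco1c1, was not the highest in any of these arrays. It ranked 9 of 12 in BLA St-Vin 3 and 9 of 11 in CRTX NSt-Con 1. In CA1 NSt-Con 3 it ranked 6 of 11, and in CA3 NSt-Con 3 it ranked 11 of 12. The receptor gene Thrb was the lowest of its area in 2 of these arrays, at 7.33 in CA1 NSt-Con 3 against 7.51 to 8.74, and at 7.85 in CA3 NSt-Con 3 against 7.86 to 8.17. These 2 arrays are punches of the same pool, that of dyad group 3. The neuron list was also the lowest of its area in CA3 NSt-Con 3, at 11.585 against 11.60 to 11.84, and ranked 7 of 11 in CA1 NSt-Con 3. Thra was lowest in CA1 NSt-Con 3, at 9.44 against 9.47 to 9.64, and lay within the range of the other arrays in the other 3 areas. Dio2 lay within the range of the other arrays in all 4. In the array ranked 2 for the choroid list of each area, Slco1c1 did not follow throughout. It ranked 4 of 12 in BLA NSt-Con 2 (9.14) and 6 of 11 in CRTX NSt-Vin 1 (8.74). It ranked 2 of 11 in CA1 NSt-Con 2 (9.32) and 12 of 12, the lowest, in CA3 St-Vin 3 (9.17). The ependymal list was 7.05 in CA1 NSt-Con 3 against 6.28 to 6.80, and 7.05 in CA3 NSt-Con 3 against 6.30 to 6.80, and the leptomeningeal list was 7.41 against 6.76 to 6.90 and 7.52 against 7.10 to 7.45 in those arrays. The choroid-rich hippocampal arrays were thus also high in ependymal and leptomeningeal genes. The part of each tissue, capillaries, astrocytes and neurons included, in the Slco1c1 and Thrb values was not tested.

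Between areas, Dio2 was lowest in BLA and Thra was lowest in CRTX. After subtraction of the array median, Dio2 averaged 0.18 ± 0.21 in CA3 (SD, n = 12), 0.12 ± 0.14 in CRTX (n = 11), -0.32 ± 0.19 in CA1 (n = 11) and -0.83 ± 0.18 in BLA (n = 12). The ranges of CA3 and CRTX overlapped, as did those of CA1 with both, while every BLA array, at -1.25 to -0.58, lay below every array of the other areas. Dio2 was lower in the BLA than in the CRTX, CA1 and CA3 punch of 11 of 11, 11 of 11 and 12 of 12 pools. It was also lower in CA1 than in CA3 in 11 of 11 pools. As a percentile of all probe sets of its array, Dio2 was low in BLA, at 20.5 to 36.2. It was at 37.3 to 51.0 in CA1, 47.3 to 59.5 in CRTX and 48.9 to 62.7 in CA3. With no background measurement used here, whether these values lie near background was not tested.

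Thra averaged 2.57 ± 0.18 in CA3, 2.46 ± 0.11 in BLA, 2.42 ± 0.06 in CA1 and 1.98 ± 0.20 in CRTX on that scale. Its CRTX range of 1.69 to 2.28 lay below those of BLA and CA1 and overlapped that of CA3, where 1 array was at 2.16. The other 3 areas overlapped one another. Thrb ran the other way, with its highest mean in CRTX: 1.41 ± 0.08 in CRTX, 0.98 ± 0.44 in CA1, 0.79 ± 0.18 in BLA and 0.65 ± 0.11 in CA3. Its CRTX range of 1.31 to 1.55 lay above those of BLA and CA3, and its CA1 range of 0.18 to 1.63 overlapped all others. Slco1c1 differed least on that scale, with means of 2.15 ± 0.21 in CA3, 2.02 ± 0.07 in BLA, 2.02 ± 0.29 in CA1 and 1.95 ± 0.14 in CRTX and every pair of areas overlapping. On the deposited values it did not: BLA lay 0.39 above CRTX, and CRTX minus CA3 was -0.78, both without overlap, and BLA also lay above CRTX without overlap on the quantile-normalized values.

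The number of members whose ranges did not overlap was 3 for BLA and CRTX (Dio2, Thra and Thrb), against 34.0% of all probe sets. It was 1 (Dio2) for BLA and CA1, against 24.0%, and 1 (Dio2) for BLA and CA3, against 26.2%. It was 1 (Thra) for CRTX and CA1, against 16.9%, 1 (Thrb) for CRTX and CA3, against 30.4%, and 0 for CA1 and CA3, against 15.0%. Separation of areas was therefore common over the whole array, and the hippocampal arrays differed from the others in RNA preparation and scan day, as CA1 did from CA3 in scan day. The Dio2 order of BLA below the others held on the deposited and on the quantile-normalized values. Thrb in BLA and CRTX overlapped on both of these scales, Thrb in CRTX and CA3 overlapped on the deposited values, and the order of Thra in BLA and CA3 changed under quantile normalization. The lower Thrb in CA3 than in BLA changed sign on the deposited values, where BLA averaged 7.89 and CA3 8.02.

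**Figure D2:**
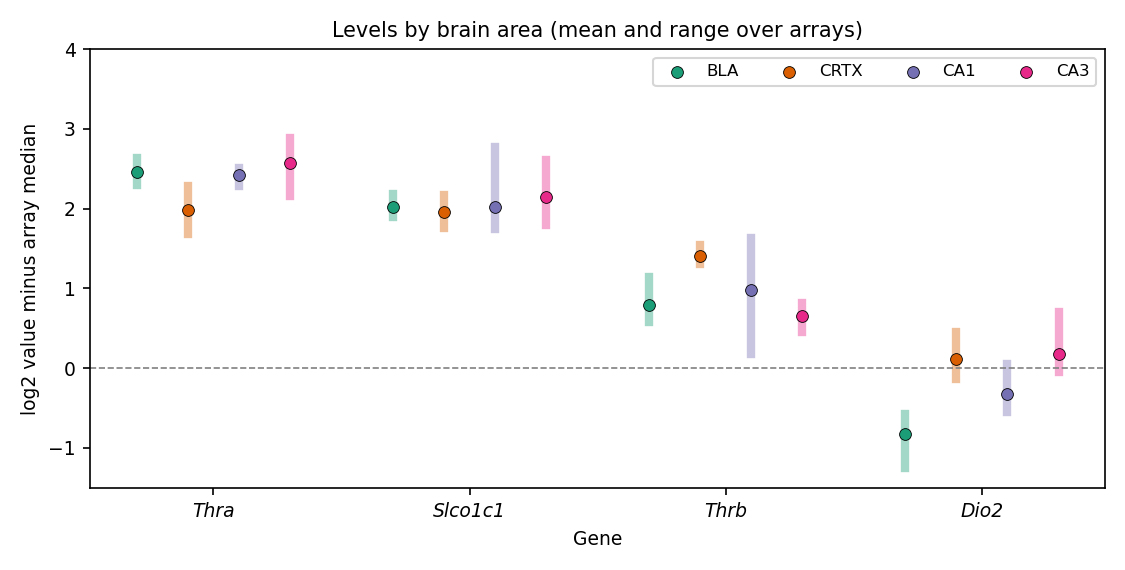
Level of Thra, Slco1c1, Thrb and Dio2 as log2 value minus the array median (vertical axis) in BLA, CRTX, CA1 and CA3. Points are means and bars the full range over 11 or 12 arrays, and heights of different genes are not comparable because each is 1 probe set. Dio2 in BLA, at -1.25 to -0.58, lies below the other areas.

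Lineage and stress were compared within each area, and in the mean of the 4 areas over the 10 pools measured in all of them. Each gave 7 comparisons: Vin against Con with and without stress, St against NSt in each lineage, the 2 averages and the interaction. A difference was called when its limma p, adjusted over all 27342 probe sets by the Benjamini-Hochberg method, was under 0.05. No member was called in any of these 35 comparisons. At an unadjusted p under 0.05 there were 15 of the 175 member comparisons (8.6%), against 6.21% of those of all probe sets. In 32 of the 35 comparisons no probe set at all was called (0.0%). The exceptions were stress in the Con lineage in CRTX, with 174 probe sets (0.636%), average stress in CRTX, with 2 (0.00731%), and stress in the Vin lineage in CA1, with 138 (0.505%). For stress in Con in CRTX and stress in Vin in CA1, the St and NSt arrays were scanned on different days. Stress cannot be told apart from scan day in those 2 comparisons. In CRTX as a whole, NSt-Vin 3 was the only NSt array used that was scanned on the day of the St arrays. For single members, groups that did not overlap and pairs that all shared a sign are described below. Groups of so few arrays can separate by chance, and the share of all probe sets that did so was not counted.

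**Figure D3:**
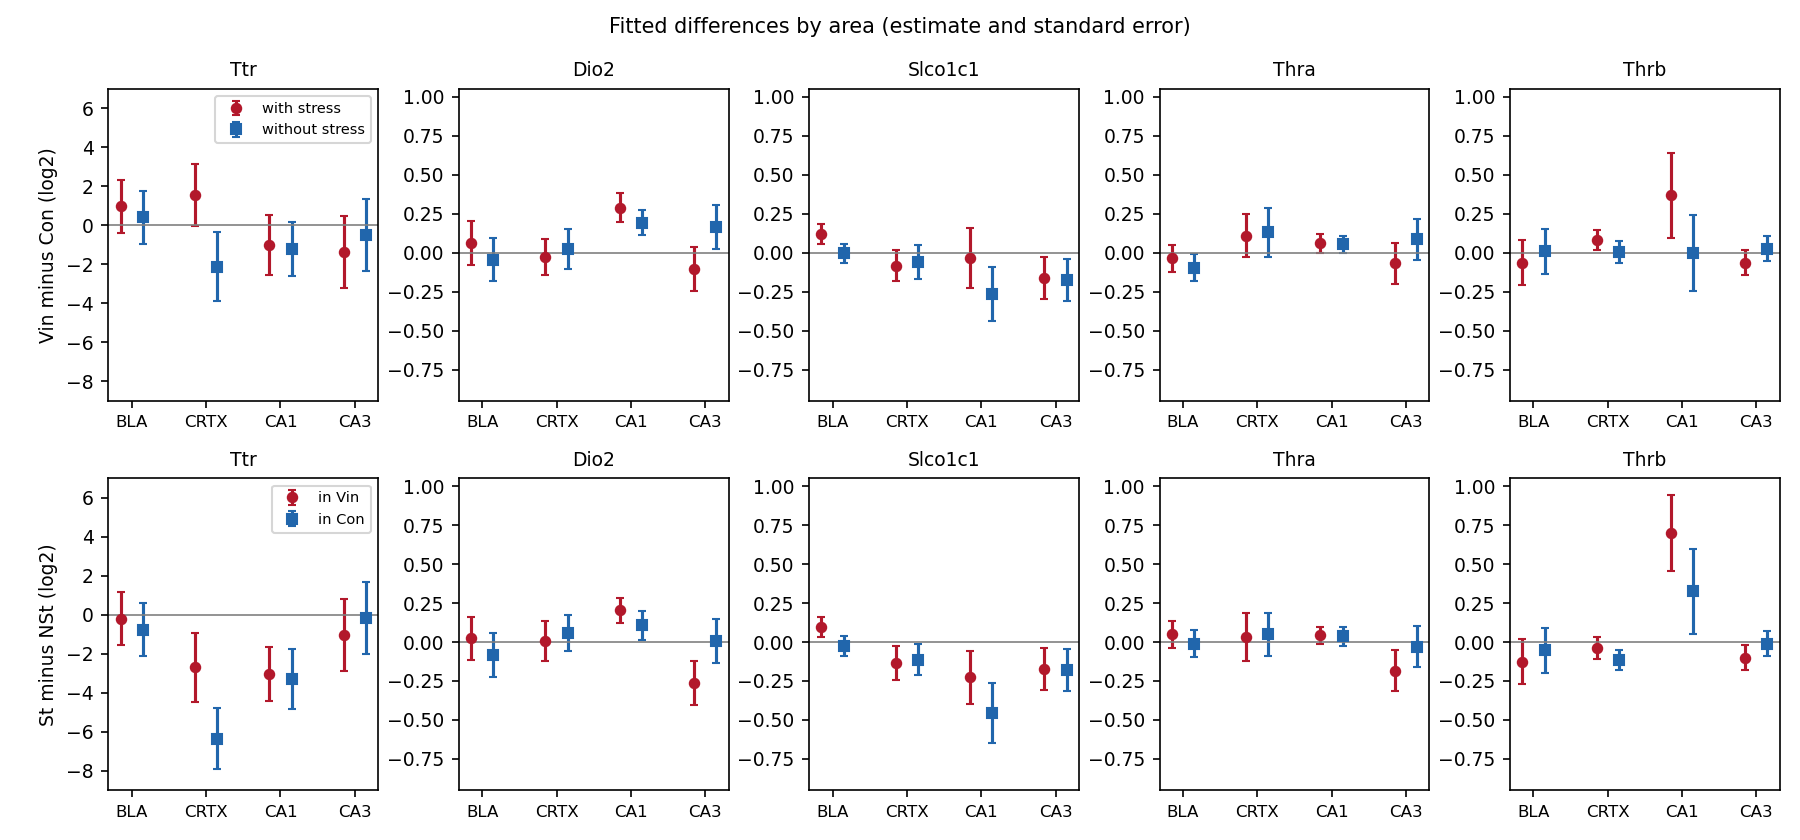
Fitted log2 differences of the 5 genes by area, with standard errors. The upper row gives Vin minus Con with and without stress and the lower row St minus NSt in Vin and in Con. Ttr has its own scale. The largest departures from 0 are Ttr in CRTX and CA1 under stress and Thrb in CA1 under stress, and none passed the test.

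Ttr, the thyroxine carrier, was lower in stressed CRTX punches of the Con lineage, without passing the test. It was 5.98, 5.21 and 4.58 in St-Con arrays, against 15.02, 8.68 and 11.12 in NSt-Con arrays. The groups did not overlap, and the fitted difference was -6.35 ± 1.58 (SE; limma adjusted p = 0.076). That number is no measured fold, because single values lie near the ends of the scale, and no background measurement was used here. In St-Con 3 only 0.622% of probe sets lay below Ttr, and 15.02 was the highest value of its array. The share below Ttr was larger in St-Con 1 and St-Con 2, at 30.1% and 9.79%. The choroid list mean went with Ttr, at 5.83 to 5.87 in St-Con and 6.12 to 7.86 in NSt-Con arrays. With that list as a covariate the difference was -3.28 ± 1.28 (limma adjusted p = 0.25), and without the choroid-rich array it was -4.64 ± 1.43 (limma adjusted p = 0.15). The St-Con arrays were all scanned on another day than the NSt-Con arrays, so stress in Con and scan day are the same split, with only NSt-Vin arrays on both days, and with scan day as a block the difference was -4.15 ± 3.23 (limma adjusted p = 0.78). Ttr passed in 1 setting, which kept the 2 mean-like arrays (-6.35 ± 1.54, limma adjusted p = 0.043, beside 1027 probe sets or 3.76% called). The CRTX array added there belongs to neither of the compared groups.

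In the Vin lineage CRTX Ttr was 10.50, 4.22 and 5.70 in St-Vin arrays, against 10.59 and 8.39 in NSt-Vin arrays, and these overlapped. Averaged over the lineages the CRTX difference with stress was -4.52 ± 1.19 (limma adjusted p = 0.15).

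In CA1 Ttr was 9.43, 7.38 and 10.43 in St-Vin, against 11.90, 12.26 and 12.21 in NSt-Vin arrays, and 11.11 and 9.02 in St-Con, against 9.42, 15.04 and 15.59 in NSt-Con arrays. The Vin groups did not overlap and the Con groups did. The St-Vin arrays were scanned on another day than the NSt-Vin arrays. The average stress difference was -3.16 ± 1.04 (limma adjusted p = 0.19), and -1.20 without the 2 CA1 arrays more than 0.4 above the choroid mean.

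In BLA it was 6.91, 6.74 and 12.46 in St-Vin, 6.99, 9.65 and 10.08 in NSt-Vin, 9.02, 6.70 and 7.45 in St-Con, and 7.32, 8.08 and 10.07 in NSt-Con arrays. In CA3 it was 11.57, 5.69 and 12.09 in St-Vin, 12.04, 9.77 and 10.64 in NSt-Vin, 13.43, 8.30 and 11.70 in St-Con, and 8.26, 11.12 and 14.49 in NSt-Con arrays. Groups overlapped throughout in these 2 areas. Between the cage-mate pools of a dyad group, Ttr was higher in Vin in 9 and lower in 13 of 22 pairs.

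Slco1c1, the thyroxine transporter (chr4:176197736-176244401), was lower in the Vin than in the Con pool in 17 of 22 pairs, all from the same 6 dyad groups. How many of all probe sets shared a sign in as many pairs was not counted, so this count has no base rate here. By area it was lower in Vin in 2 of 6 pairs in BLA, 5 of 5 in CRTX, 5 of 5 in CA1 and 5 of 6 in CA3. Both lower pairs in BLA were at only -0.01, the last digit of the deposited values. So were dyad groups 3 and 5 in CRTX and dyad group 1 in CA1. The pairs of CA1 NSt-Con 3 and CA3 NSt-Con 3, both choroid-rich, differed most. In CA1 they were -0.09 and -0.12 in the St pairs and -0.01, -0.08 and -0.70 in the NSt pairs, where -0.70 is the pair of CA1 NSt-Con 3. In CA3 the pair of CA3 NSt-Con 3 differed by -0.63 and the others by -0.28 to 0.16. In CRTX the pair of the choroid-rich NSt-Con 1 differed by -0.20, 1 St pair by -0.19 and the others by -0.05 to -0.01. In BLA the pair of St-Vin 3, the array highest in choroid genes, differed by 0.30 and the others by -0.01 to 0.04. The fitted average differences of Vin minus Con were -0.07 in CRTX, -0.15 in CA1 and -0.17 in CA3, and none was called. In CA1 the sign turned with the choroid list as a covariate, to 0.02.

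Under stress Slco1c1 in CA1 was 8.89, 8.87 and 9.09 in St-Vin, against 9.06, 9.24 and 9.23 in NSt-Vin arrays, and 8.98 and 8.99 in St-Con, against 9.07, 9.32 and 9.93 in NSt-Con arrays. The Con groups did not overlap, and the Vin groups, which were scanned on different days, overlapped by 1 array. The average difference was -0.34 ± 0.13 (limma adjusted p = 0.23), and -0.14 with the choroid list as a covariate. In the mean of areas it was -0.15 ± 0.06 (limma adjusted p = 0.57). In the other areas Slco1c1 ranged over 9.01 to 9.31 in BLA, 8.53 to 8.94 in CRTX and 9.17 to 10.00 in CA3 with no stress difference that was called.

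**Figure D4:**
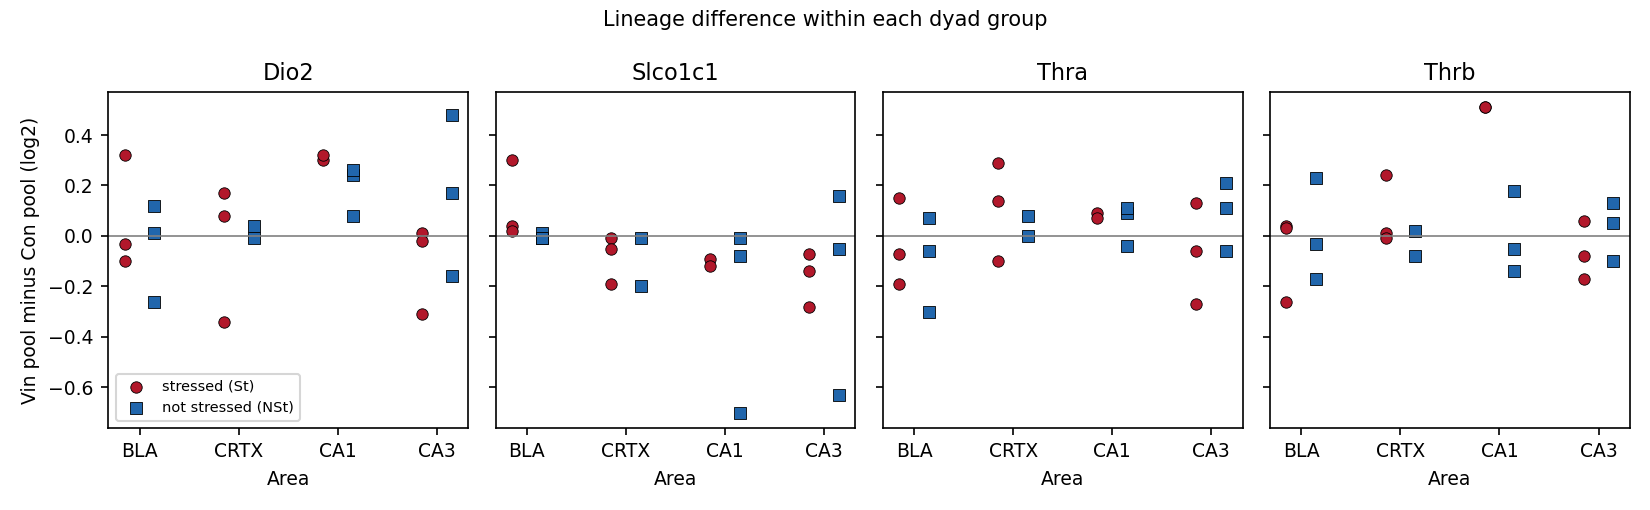
Vin pool minus Con pool of the same dyad group (vertical axis, log2) for Dio2, Slco1c1, Thra and Thrb, by area and stress. Each point is 1 pair, 5 or 6 an area. Dio2 lies above 0 in 5 of 5 CA1 pairs, and Slco1c1 lies below 0 in 5 of 5 CRTX and 5 of 5 CA1 pairs. The Slco1c1 points nearest to 0 in CRTX and CA1 are at -0.01.

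Dio2, the activating deiodinase, was higher in the Vin than in the Con lineage in 5 of 5 CA1 pairs, without passing the test. The promoter window and the gene (chr6:115396308-115410594) are given here because Dio2 in CA1 had the lowest unadjusted p of all lineage differences of the members, and a window of Thrb because its lineage difference was called with cage mates as a block. Both windows run from 250 bases before to 50 after the start in RefSeq's GRCr8, on the minus strand, Dio2 at chr6:115410545-115410844 and Thrb at chr15:10461397-10461696. The start used for Thrb lies inside the annotated gene, chr15:10115954-10465231. Capitals mark CG dinucleotides, the bases at which vertebrate DNA is methylated, and methylation itself was not measured here.
Dio2: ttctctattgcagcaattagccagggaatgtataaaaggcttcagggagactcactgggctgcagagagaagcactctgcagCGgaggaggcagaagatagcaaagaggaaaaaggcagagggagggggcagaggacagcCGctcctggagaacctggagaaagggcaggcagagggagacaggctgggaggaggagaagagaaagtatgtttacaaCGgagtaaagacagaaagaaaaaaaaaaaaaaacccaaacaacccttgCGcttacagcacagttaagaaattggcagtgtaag
Thrb: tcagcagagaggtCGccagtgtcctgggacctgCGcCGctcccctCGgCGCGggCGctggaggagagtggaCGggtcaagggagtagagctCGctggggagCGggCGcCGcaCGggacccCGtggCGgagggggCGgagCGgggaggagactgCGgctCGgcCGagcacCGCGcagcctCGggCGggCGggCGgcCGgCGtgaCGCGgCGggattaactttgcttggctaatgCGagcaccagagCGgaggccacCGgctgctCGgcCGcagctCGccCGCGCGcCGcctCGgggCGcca
The Dio2 window holds 4 CG dinucleotides and 49.0% G and C, and the Thrb window 43 and 76.0%, beside medians of 7 and 51.7% over 33469 windows of that length. More CG dinucleotides than in the Thrb window were found in 1.89% of them. The thyroid receptor half-site AGGTCA, searched on both strands, is in neither window and in 16.2% of all.

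In CA1 Dio2 was 7.16, 6.94 and 6.99 in St-Vin, against 6.86 and 6.62 in St-Con arrays, and 6.72, 6.84 and 6.92 in NSt-Vin, against 6.64, 6.60 and 6.66 in NSt-Con arrays. Within each stress condition the Vin values lay above the Con values without overlap. How many of all probe sets separated in this way was not counted, so the separation has no base rate here. Dio2 lay at percentile 37.3 to 51.0 of its CA1 arrays, and its distance from background was not tested. The difference was 0.29 ± 0.09 with stress (limma adjusted p = 0.94), 0.19 ± 0.08 without it (limma adjusted p = 0.99) and 0.24 ± 0.06 on average (unadjusted p = 0.0025, limma adjusted p = 0.99). With dyad group as a block it was 0.25 (limma adjusted p = 0.080). The 3 St-Vin arrays were scanned on another day than the St-Con arrays used, whereas all NSt arrays of CA1 share 1 scan day. Marker lists differed between the lineages as well. All 4 CA1 pyramidal cell genes were higher in Vin, with a median difference of 0.23 with stress and 0.10 without it. Astrocyte genes, markers of the cells known for Dio2, were higher in Vin in 4 of 8 with stress (median -0.01) and in 8 of 8 without it (median 0.10). None of these list genes was called, and their part in the Dio2 values was not tested.

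Dio2 in CA1 had a stress difference of 0.20 ± 0.08 in Vin (limma adjusted p = 0.22) and 0.16 ± 0.06 on average (limma adjusted p = 0.24). Stress in Vin coincides with scan day in CA1. With stress in Vin the astrocyte genes had lower values in 8 of 8, with a median difference of -0.21, and the CA1 genes higher ones in 4 of 4 (0.20), none of them called. In the other areas the lineages did not separate. Dio2 was higher in Vin in 3 of 6 pairs in BLA, 3 of 5 in CRTX and 3 of 6 in CA3. Its values ran from 5.86 to 6.54 in BLA, 6.65 to 7.25 in CRTX and 7.33 to 8.05 in CA3, and the highest of these, 8.05, was CA3 NSt-Vin 1.

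**Figure D5:**
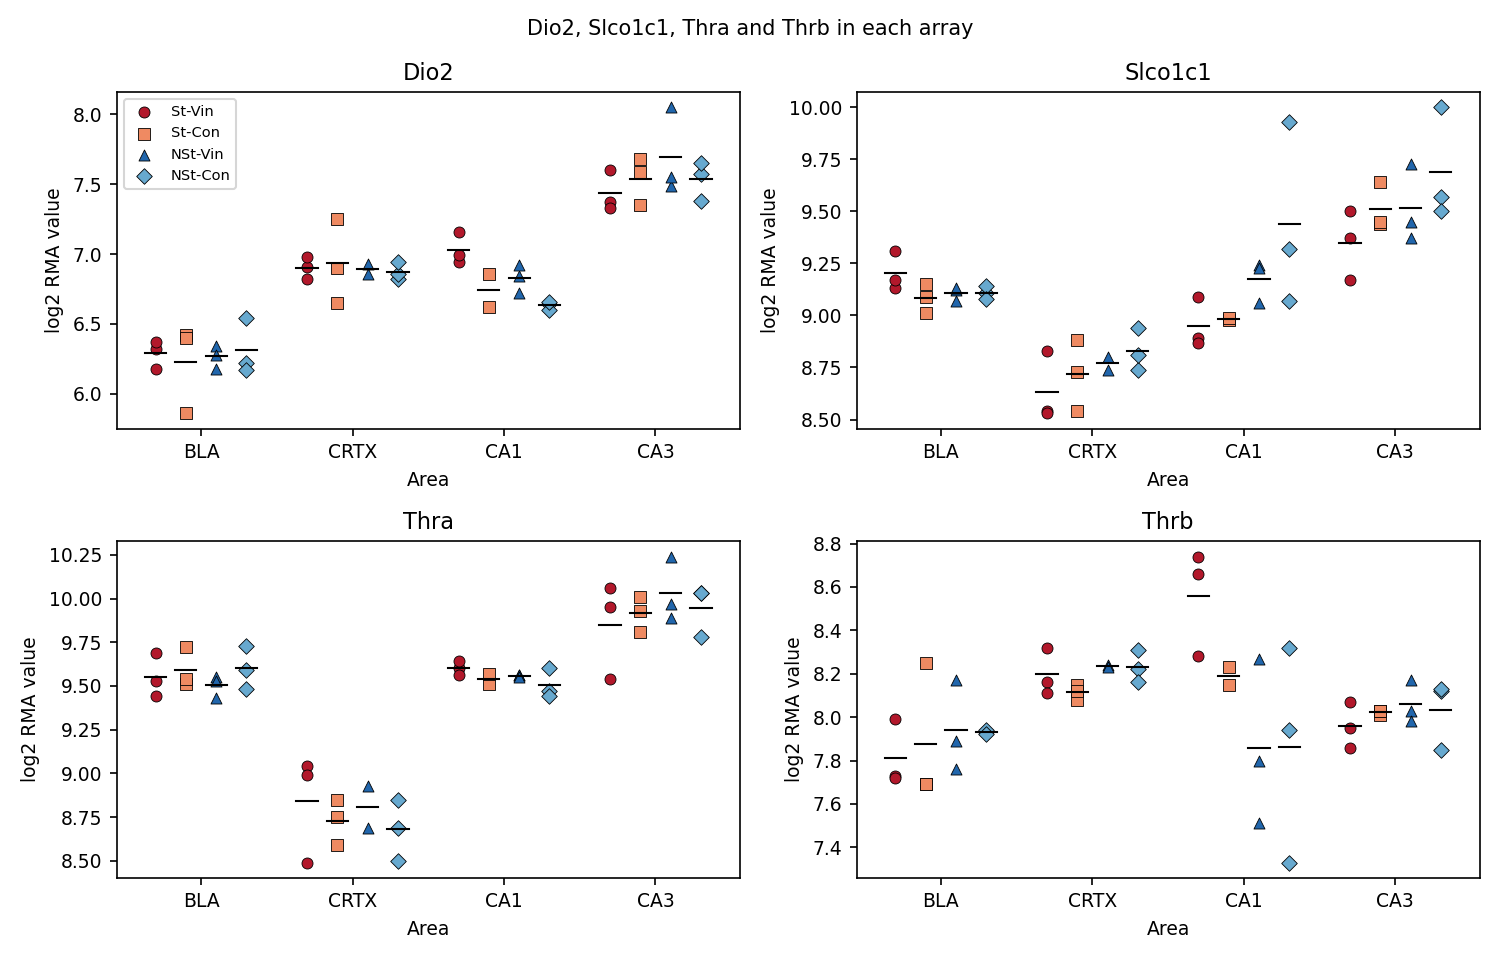
Dio2, Slco1c1, Thra and Thrb (vertical axes, log2 RMA value) in every array used, by area and group. Horizontal bars are group means of 2 or 3 arrays. In CA1, Dio2 is higher in Vin than in Con within each stress condition, and Thrb has its highest mean in St-Vin, at 8.28 to 8.74, which overlaps NSt-Con at 7.33 to 8.32.

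Thra (chr10:84198141-84225659), whose product is the more abundant receptor type of the brain, showed the least change of the 5. None of its 35 comparisons reached an unadjusted p under 0.05, and its differences lay between -0.18 and 0.13. In CA1 it spanned 9.44 to 9.64 over all arrays, 9.56 to 9.64 in St-Vin, 9.55 to 9.56 in NSt-Vin, 9.51 to 9.57 in St-Con and 9.44 to 9.60 in NSt-Con. It was 9.43 to 9.73 in BLA, 8.49 to 9.04 in CRTX and 9.54 to 10.24 in CA3. Vin was higher in 12 and lower in 9 of 22 pairs, and 1 pair was equal.

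Thrb, the receptor that in rodents also serves hearing, colour vision and pituitary feedback, varied most in CA1. There it was 8.74, 8.66 and 8.28 in St-Vin, against 8.23 and 8.15 in St-Con, 8.27, 7.80 and 7.51 in NSt-Vin and 8.32, 7.94 and 7.33 in NSt-Con arrays. St-Vin lay above NSt-Vin without overlap, 8.28 against 8.27 at the nearest arrays, and also above St-Con, and overlapped NSt-Con, whose highest array was at 8.32. The stress difference was 0.70 ± 0.24 in Vin (limma adjusted p = 0.17) and 0.51 ± 0.18 on average (limma adjusted p = 0.21), and 0.28 without the 2 CA1 arrays highest in choroid genes. None was called.

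The lineage difference with stress was 0.37 ± 0.27 (limma adjusted p = 0.98). With dyad group as a block, so that cage-mate pools were set against each other, Thrb was called at 0.51 ± 0.09 (limma adjusted p = 0.032), beside 347 probe sets or 1.27% called in that fit. It rests on 2 pairs, 8.74 in Vin against 8.23 in Con and 8.66 in Vin against 8.15 in Con, and the remaining St pair lacks its Con array. In the 3 NSt pairs the difference was -0.05, -0.14 and 0.18. Among the arrays used, the St-Vin arrays of CA1 were the only ones scanned on their day. Lineage with stress, and stress in Vin, therefore cannot be told apart from scan day there.

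Marker lists moved with Thrb in CA1. The arrays with the lowest Thrb, CA1 NSt-Con 3 at 7.33 and CA1 NSt-Vin 3 at 7.51, had the lowest list means of CA1 pyramidal cell genes, 7.80 and 8.04, and the highest of CA3 pyramidal cell genes, 9.54 and 9.41. The arrays with the highest Thrb, CA1 St-Vin 1 at 8.74 and CA1 St-Vin 2 at 8.66, had 8.89 and 9.11 for CA1 genes and 8.62 and 8.66 for CA3 genes, the highest and lowest of the area. By group, the 4 CA1 genes had list means of 8.44 to 9.11 in St-Vin, 8.04 to 8.80 in NSt-Vin, 8.42 to 8.68 in St-Con and 7.80 to 8.76 in NSt-Con. The oligodendrocyte list ran from 10.37 to 10.90 in St-Vin and from 10.07 to 10.63 over the other 3 groups. The part of punch position or cell makeup in the Thrb values was not tested. In BLA Thrb ran from 7.69 to 8.25, in CRTX from 8.08 to 8.32 and in CA3 from 7.85 to 8.17, with differences of at most 0.13 in size.

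Whether an effect differed between the areas was asked with a limma F test that kept the pool as a random block. No member was called. For average stress the test called 248 probe sets (0.907%), and the members had adjusted p of 0.087 (Thrb), 0.32 (Slco1c1), 0.35 (Ttr), 0.54 (Dio2) and 0.76 (Thra). For stress in Con it called 26 (0.0951%) and for stress in Vin 72 (0.263%), and the lowest member values were 0.61 for Ttr and 0.14 for Thrb. Stress went with scan day in CRTX and, for the Vin lineage, in CA1, whereas BLA and CA3 have 1 scan day each. A stress difference that varies by area therefore cannot be told apart from scan day in this test. For the lineage differences it called none (0.0%), beside 917 to 1212 probe sets at an unadjusted p under 0.05.

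Other genes of the pathway were read from 4 lists, of which 44 of 49 genes had a probe set of their own: 10 of transport, metabolism and binding, 12 of receptor partners and cofactors, 15 whose expression answers to thyroid hormone and 7 of the pituitary and thyroid axis. Of these, 0 were called higher and 0 lower in any of the 35 comparisons. The list medians lay between -0.06 and 0.065 for transport and metabolism, -0.13 and 0.04 for receptor partners, -0.17 and 0.10 for responsive genes and -0.06 and 0.06 for the axis, while the median of all probe sets lay between -0.02 and 0.01. The list genes nearest to the threshold were Trhr, the receptor of thyrotropin-releasing hormone, which differed by -0.48 ± 0.09 with stress in Vin in CA1 (limma adjusted p = 0.058), and Serpina7, the thyroxine-binding globulin, which differed by -0.31 ± 0.08 with stress in Con in CRTX (limma adjusted p = 0.076). These 2 were picked after their values were seen. In both comparisons the St and NSt arrays were scanned on different days, so stress and scan day cannot be told apart.

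The genes whose deviations from the area mean ran most alike to each member were taken over the 46 arrays, which share pools and normalization. For Ttr these were Kcnj13 (Pearson r = 0.82), a choroid plexus potassium channel, Clic6 (0.81) and Enpp2 (0.80), and its r with the choroid list was 0.75. Kcnj13 itself was 9.90, 10.92 and 12.06 in the choroid-rich CRTX, CA1 and CA3 arrays, against at most 7.30, 8.61 and 9.39 in the other arrays of those areas. For Slco1c1 they were Trpm3 (0.85), Prelp (0.83) and Cldn1 (0.83), and its r with the choroid list was 0.76. Without the 3 choroid-rich arrays (n = 43) the Slco1c1 values gave Hsd11b1 (0.73), Gcsh (0.72) and Gsta1 (0.70) and an r of 0.40 with the choroid list, whereas Ttr kept Kcnj13 (0.82) first and had an r of 0.81 with the list.

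For Dio2 the most alike genes were Gid4 (0.65), Ogfr (0.65) and Cbx6 (0.64), lower values than for any other member. For Thra they were Zc3h7b (0.82), Ncan (0.80), a proteoglycan of the neural matrix, and Ncs1 (0.80), a neuronal calcium sensor. For Thrb they were Stx1a (0.90), a presynaptic syntaxin, Kif1a (0.90), an axonal transport motor, and Cntn4 (0.89), an axonal adhesion protein. Without the choroid-rich arrays, Thrb was most alike to Chrna4 (0.90), Stx1a (0.87) and Kif1a (0.87), Thra to Zc3h7b (0.82), Ddn (0.80) and Ncs1 (0.80), and Dio2 to Cbx6 (0.65), Gid4 (0.65) and Dusp7 (0.65). Among the members themselves, r was 0.54 for Ttr and Slco1c1 (0.38 without the choroid-rich arrays), -0.56 for Thrb and Slco1c1 (-0.34 without them), 0.39 for Dio2 and Thra (0.37 without them), and -0.003 for Ttr and Thra (0.04 without them).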

How the data were processed

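The deposited values are log2 expression per probe set on Affymetrix whole-transcript arrays with biotin-labelled cDNA, 1 array a pool, and per the submitters' processing notes Partek and RMA were used. Versions, background settings and whether areas were normalized together are not given in the sources used here. The number of arrays limits the precision. Of 27342 probe sets, 15097 carried 1 symbol, 323 several and 11922 none in the platform annotation. Of the probe sets with 1 symbol, 15067 matched RefSeq's GRCr8 table. With R 4.3.3, limma 3.58.1 (lmFit, contrasts.fit and eBayes, two-sided) was fitted to each area with its 4 groups, with Benjamini-Hochberg adjustment over all probe sets, and tested on simulated data. Members, gene lists and tests were chosen with earlier results of these data known. The genes named by rule are the 5 members, list genes that pass the test (none did), and the 3 genes most alike to each member. Marker genes of the area labels, Fezf2 and Rspo1 included, and Trhr and Serpina7 were named after their values were seen. Per the labels, a dyad group pairs the Vin and Con pools of cage mates. Deviations from group means correlated over 0.1 in 6 of 6 pairs in BLA, 3 of 5 in CRTX, 5 of 5 in CA1 and 5 of 6 in CA3. Between Vin and Con pools of different dyad groups they did so in 3 of 12, 3 of 10, 1 of 10 and 2 of 12. In a group of 2 arrays the deviations mirror each other, so those pairs are not independent. The main lineage fits do not use the pairing. The block fit is an alternative. Each pool came from separate animals, but a pool gives 1 array an area.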

Additional observations from a re-analysis of the deposited data

How the results depend on the processing

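Counts of called members were recomputed within areas with all 48 arrays (CRTX and CA1), dyad group as a replicate block (lineage and interaction), the choroid-rich arrays left out (not BLA, which has none), the choroid list as a covariate, scan day as a block (CRTX), low probe sets left out, quantile normalization, trended and robust variances and each array left out in turn. For the mean of areas only the block, the choroid-rich arrays and leaving out 1 pool were run. Counts of members whose ranges did not overlap in 6 pairs of areas were recomputed with deposited values, quantile normalization and the choroid-rich arrays left out. Leaving out the arrays over 0.4 above the choroid mean was added after the data were seen. The count of called members was 0 under each of these, leave-one-out included, with 2 exceptions: it was 1 (Ttr) in CRTX for stress in Con with all 48 arrays, and 1 (Thrb) in CA1 for lineage with stress under the replicate block. The block changed no other call. Members not overlapping became 2 for BLA and CA1 with quantile normalization, 3 for CRTX and CA3 with deposited values and 2 with quantile normalization, and 1 for CA1 and CA3 with deposited values. Of 17 named differences, 1 changed sign: Slco1c1 in CA1, Vin minus Con on average, at 0.0358 without the arrays high in choroid genes and 0.0223 with the choroid covariate. Over all 3005 alternative values of the 5 genes, 281 (9.4%) changed sign, none of a difference with an unadjusted p under 0.05. Leaving out 1 array moved Ttr in CRTX, stress in Con, between -7.81 and -4.64 (limma adjusted p from 0.051 to 0.18), with -4.64 when NSt-Con 1 was left out, Thrb in CA1, stress in Vin, between 0.53 and 0.91, and Dio2 in CA1, average lineage, between 0.18 and 0.30. Averaging the probe sets of a symbol changes nothing, since each member has 1. Scan day could not be fitted in CA1, where it separates St-Vin from the rest of the arrays used, and BLA and CA3 have 1 scan day each. Groups of 2 or 3 arrays limit what could be called.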
